A study of Mus musculus with 23 samples.

Results

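The muscles described here are those of mice with the normal 2 copies of the *Hspa13-App* interval, the diploid littermates that served as controls in a study of its deletion and duplication. Members were all arrays labelled as diploid controls, 11 of the 23 arrays of the series. They fall into 6 Ms3Yah WT mice, littermates of mice with the deletion, and 5 Ts2Yah WT mice, littermates of mice with the duplication. Total RNA of the gastrocnemius of each adult mouse had been hybridised to 1 Illumina MouseWG-6 v2.0 array of 45281 probes. Both groups carry the C57BL6/J strain label, neither carries the rearranged chromosome, and no treatment is named for either. The rearrangements had been made in ES cells of 129 origin and crossed to C57BL/6J for several generations. The labels give neither age, sex nor the hour of sampling. The authors left out 1 more diploid mouse from the duplication line, and it is not used here. The breeding line coincides with the group, so line, litter, sampling and array processing cannot be told apart in any difference between Ms3Yah WT and Ts2Yah WT mice.

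The gastrocnemius is the large calf muscle and in mice is built mostly of fast-twitch fibres. A fibre contracts when myosin heads pull on actin filaments inside the sarcomere, under control of the troponin and tropomyosin switch that responds to calcium. Calcium leaves the sarcoplasmic reticulum through the ryanodine receptor and is pumped back by the ATPase SERCA1. ATP for both steps is supplied by creatine phosphate, glycolysis and the mitochondrial respiratory chain. Between fibres lie capillaries, nerve, tendon, connective tissue and fat cells, all of which contribute RNA to a whole-muscle extract, and many muscle genes follow the daily cycle of the circadian clock.

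Raw signals of all 23 arrays were brought to one distribution by quantile normalisation, and each gene was read by its brightest probe unless a dimmer one is named. Values are normalised signals in array units, as mean ± SD over mice. Differences are log2 signals of Ms3Yah WT minus Ts2Yah WT mice, with their SE, tested two-sided with limma and adjusted by the Benjamini-Hochberg method over the 44307 probes expressed in diploid muscle. A probe was called when its adjusted p was below 0.05, and "rose", "fell" or "changed" is kept for called probes. The signal of a probe depends on its affinity as well as on the abundance of its transcript, so the order of genes below is an order of probe signal and not of molar abundance. For 2691 genes with at least 2 probes detected on all 11 arrays, the brightest probe exceeded the dimmest by a median of 1.90-fold, and by more than 2-fold in 48.1% of these genes. A quantile-normalised signal near the top is the mean of the signals of that rank over the arrays, which is why equal values recur among the brightest genes.

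The raw arrays of the groups were similar in most measures. Median raw signals averaged 92.7 ± 6.62 in Ms3Yah WT and 95.6 ± 1.27 in Ts2Yah WT muscles, and detected probes 18026 ± 471 and 17924 ± 573 in the same order (SD, n = 6 and 5). The highest raw signal, which was not among the measures planned for this test, was the exception. It ran from 32924 to 44985 on the Ms3Yah WT arrays and from 46469 to 51336 on the Ts2Yah WT arrays, without overlap (exact permutation test, two-sided, p = 0.00433, the smallest that 462 splits allow, and 0.0216 after adjustment over 5 measures). Correlations of log2 signals over all probes were 0.983 to 0.993 within Ms3Yah WT, 0.988 to 0.994 within Ts2Yah WT and 0.973 to 0.991 between the groups. On the first principal component of the 11 arrays, with 33.4% of the variance, Ms3Yah WT mice lay between −32.1 and 1.47 and Ts2Yah WT mice between 4.97 and 23.1.

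The brightest genes of diploid gastrocnemius were those of the fast sarcomere, glycolysis and the respiratory chain, and their order was close to the same in both groups. Of the 19057 named genes, 8106 were detected on all 11 arrays and 5136 on none. Signals spread over a wide range, with 126 genes above 10000 and 1456 above 1000. The 10 brightest genes held 4.15% of the summed signal, the brightest 100 held 25.2% and the brightest 1000 held 61.3%.

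*Mylpf*, the regulatory light chain of fast myosin, was the brightest gene with a signal of 41792 ± 1331 (SD, n = 11). It was 39574 at the lowest, 41997 at the median and 43819.7 at the highest among Ms3Yah WT mice, against 41115, 41115, 41115, 42880.1 and 42880.1 in Ts2Yah WT mice, so the groups overlapped fully. *Eno3*, the muscle enolase of glycolysis, followed at 39744 ± 1393. The fast troponin I gene *Tnni2* (39064 ± 5043) and *Aldoa*, the aldolase of muscle (39046 ± 3785), came next, within 1 SD of *Eno3*. The order inside this group of 4 is therefore smaller than the spread between mice for *Eno3*, *Tnni2* and *Aldoa*.

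Contractile genes made up 8 of the other places among the brightest 20. *Actn3*, the alpha-actinin of fast fibres, had a signal of 37442 ± 2307, and the fast troponin T gene *Tnnt3* had 36589 ± 2394. The fast troponin C gene *Tnnc2* (36579.6 ± 2219.9) and *Tcap*, which caps titin at the Z-disc (36048 ± 1864), lay close to them. Beta-tropomyosin *Tpm2* (34999 ± 4745), the essential light chain *Myl1* (34216 ± 2414) and *Myh4*, the myosin heavy chain of type IIB fibres (33746 ± 1864), followed. *Atp2a1*, which encodes SERCA1 and was counted with the fast-fibre genes, ranked 8 with 37142 ± 3320.2. Neighbours in this order differed by less than their SD.

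Genes of energy supply held most of the remaining places. *Atp5b*, the catalytic beta subunit of ATP synthase, ranked 5 with 38627 ± 2341, and *CYTB*, the cytochrome b gene of mitochondrial DNA, ranked 6 with 38503 ± 1314. The ATP synthase subunit c gene *Atp5g3* had 35640.4 ± 4062, and *Cox6a2*, the muscle form of a cytochrome oxidase subunit, had 33191 ± 2670.3. Muscle creatine kinase *Ckm*, which regenerates ATP from creatine phosphate, stood at 34316 ± 3797, and *Pgm1*, which links glycogen to glycolysis, at 32975 ± 3468. The small heat shock protein gene *Hspb6* (36384 ± 4288) and the ferritin heavy chain gene *Fth1* (35441 ± 1702) completed the brightest 20.

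**Figure D1:**
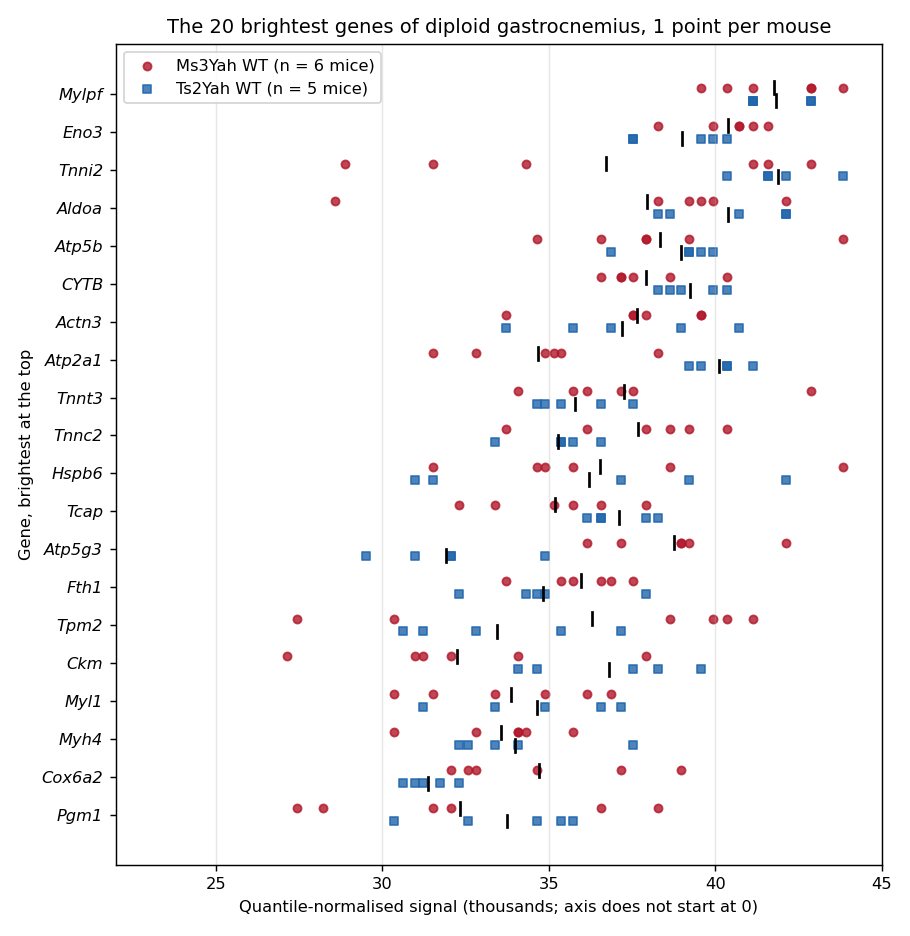
Normalised signal (horizontal axis, in units of 1000, not starting at 0) of the 20 brightest genes in each mouse. Red circles are the 6 Ms3Yah WT mice, blue squares the 5 Ts2Yah WT mice and black ticks the group means; the groups overlap in all rows except *Atp2a1* and *Atp5g3*.

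The same classes filled the brightest 100. Of the genes listed as contractile or sarcomeric, 20 of 37 were among them, as were 20 of 59 nuclear genes of oxidative phosphorylation, 9 of 15 of glycolysis and glycogen and 5 of 8 of mitochondrial DNA. Genes whose symbols begin with Rpl or Rps, those of cytosolic ribosomal proteins, filled 15 places out of 70 ranked. None of 16 genes of the TCA cycle reached the brightest 100, where *Suclg1*, a subunit of succinate-CoA ligase, was their highest at rank 107. The TCA median rank was 589, against 162 for nuclear oxidative phosphorylation and 50 for glycolysis and glycogen. With the mean over all probes of a gene in place of the brightest probe, 79 of the brightest 100 genes were shared with this list.

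The tissue label was checked against fibre markers, and fast-fibre genes were brighter than slow-fibre genes. All 13 measured fast-fibre genes were detected on all 11 arrays, at a median rank of 17, and 10 of them were in the brightest 100. *Pvalb*, the calcium buffer parvalbumin of fast fibres, had 31576 ± 1589, and *Myh1*, the heavy chain of type IIX fibres, 6316 ± 1273. All 10 slow-fibre genes were detected too, at a median rank of 281, and 2 of them reached the brightest 100. These were the slow light chains *Myl2* (13046 ± 3903, rank 91) and *Myl3* (12271 ± 3597, rank 95). *Myh7*, the slow heavy chain, had 334 ± 139 at rank 3504, and the slow troponin I gene *Tnni1* had 306 ± 123.

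Signals within a class were spread over many ranks. *Neb* encodes nebulin, a giant ruler of the thin filament, and its brightest probe had a signal of 136 ± 24.3 at rank 6722, next to 29684 ± 1949.6 at rank 27 for skeletal actin *Acta1*. Of the mitochondrial genome, *CYTB* and *ND5*, a complex I subunit gene, stood at ranks 6 and 6988. Among the 2691 genes above, the 90th percentile of the ratio of brightest to dimmest probe was 8.60, so gaps between genes cannot be read as ratios of transcripts.

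Genes of the cells between the fibres lay far lower. The median rank was 1811 for matrix and fibroblast genes, 3717.5 for endothelial genes, 4146.5 for adipocyte genes, 4451 for pericyte and smooth muscle genes and 4725 for tendon genes. It was 6344.5 for macrophage genes and 7813.5 for lymphocyte genes, where 8 of 12 and 1 of 6 were detected on all 11 arrays. Of 6 epidermal genes, 3 were detected on no array. Haemoglobin alpha *Hba-a1* was the brightest blood gene, at 7755 ± 2796. In whole muscle, fewer cells of a type and less RNA per cell cannot be told apart.

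The groups shared 17 of their brightest 20 genes, 93 of 100, 473 of 500 and 946 of 1000. Among the brightest 100 genes of all 11 mice, the rank moved by a median of 4 places between the groups and by at most 39, and the median absolute log2 difference was 0.07. Of these 100 genes, 3 changed, 2 of them upward, where 1.7% of all genes and 4.1% of probes detected on all 11 arrays were called. Among genes in the brightest 100 of either group, the linker histone *H1f2* moved most, with rank 132 in Ms3Yah WT against 92 in Ts2Yah WT muscles. *Car3*, the carbonic anhydrase abundant in muscle and fat, ranked 119 in Ms3Yah WT and 80 in Ts2Yah WT muscles.

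*Car3* was 6009 at the lowest, 10920.4 at the median and 14643 at the highest in Ms3Yah WT mice, against 17372, 18826, 14842, 7846 and 15762 in Ts2Yah WT mice. The groups overlapped only through 1 dim Ts2Yah WT mouse, and the difference of −0.5 ± 0.28 (SE, adjusted p = 0.412) was not called. For *H1f2* the signals were 7538 at the lowest, 10443 at the median and 11099 at the highest in Ms3Yah WT mice and 12430.3, 15341, 12766, 13388 and 12509 in Ts2Yah WT mice, without overlap, yet the difference of −0.46 ± 0.11 (SE, adjusted p = 0.0618) missed the threshold. *Mylk2*, the myosin light chain kinase of skeletal muscle, was also lower in mean signal, at 10725 ± 1858 in Ms3Yah WT muscles and 13958 ± 1283 in Ts2Yah WT muscles (log2 difference −0.39, SE 0.11, adjusted p = 0.114). *Nme2*, a nucleoside diphosphate kinase, ran the other way at 11869 ± 1049 in Ms3Yah WT muscles and 10425 ± 1178 in Ts2Yah WT muscles (log2 difference 0.19, SE 0.08, adjusted p = 0.265).

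A change within the brightest 20 was called for *Atp5g3* and *Atp2a1*. *Atp5g3* was 36133 at the lowest, 38969 at the median and 42116 at the highest in Ms3Yah WT muscles, against 32050.1, 30989, 29514, 32050.1 and 34871 in Ts2Yah WT muscles, so every Ms3Yah WT mouse lay above every Ts2Yah WT mouse. It rose by 0.28 ± 0.05 (SE, adjusted p = 0.0179), and its rank was 3 in Ms3Yah WT and 20 in Ts2Yah WT muscles. With arrays scaled to a common median and no quantile step its difference was 0.03 (adjusted p = 0.881). *Atp2a1* was 31529 at the lowest, 35006 at the median and 38271 at the highest in Ms3Yah WT muscles, against 40335, 40335, 39216, 41115 and 39574 in Ts2Yah WT muscles, also without overlap. It fell with a difference of −0.21 ± 0.04 (SE, adjusted p = 0.0397), and this call was lost in 10 of 11 fits that left out 1 mouse. Under median scaling its difference was −0.47 (adjusted p = 0.0156).

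Across the whole array the diploid groups differed at 627 of 44307 probes (1.42%), with 267 higher (0.603%) and 360 lower (0.813%) in Ms3Yah WT muscles. Read by the brightest probe of each gene, 321 of 18902 genes were called (1.7%), of which 160 were higher (0.846%) and 161 lower (0.852%). At an unadjusted p below 0.05 there were 6910 probes (15.6%). The arrays of the groups did not overlap for 1221 probes (2.76%), of which 555 were higher (1.25%) and 666 lower (1.5%), and for 553 genes (2.93%). Of the 627 called probes, 530 did not overlap. Differences were small, with a median absolute log2 value of 0.36 among called probes. Only 107 passed 1.5-fold and 20 passed 2-fold. The folds of called probes ran from 1.1 to 3.22 where Ms3Yah WT was higher and from 0.914 down to 0.247 where it was lower. Of 13594 probes detected on all 11 arrays 4.1% were called, against 0.468% of 13681 probes detected on some and 0.0294% of 17032 detected on none.

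The number of called probes depended on single mice. Without mouse 34925 of the Ts2Yah WT group 228 probes were called, without 34923 there were 303, without 34731 there were 377, and without mouse 37094 of the Ms3Yah WT group there were 342. With the signal of *Adipoq*, the adipocyte hormone adiponectin, as a covariate, an alternative added after the data had been seen, 17 probes were called. *Adipoq* itself differed in mean between the groups, which multiplied the variance of the group term by 1.95 in that fit. The differences of 38 called probes named here were then 0.435 to 1.4 times those without the covariate, with a median of 0.833, and 12 of the 38 were as large or larger. All 627 probes kept their direction in each of these fits, which drew on the arrays that the probes were called from, so this adds no support. Of these 38 probes, 17 stayed called in all 11 fits that left out 1 mouse, and the other 21 were all lost without mouse 34925.

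**Figure D2:**
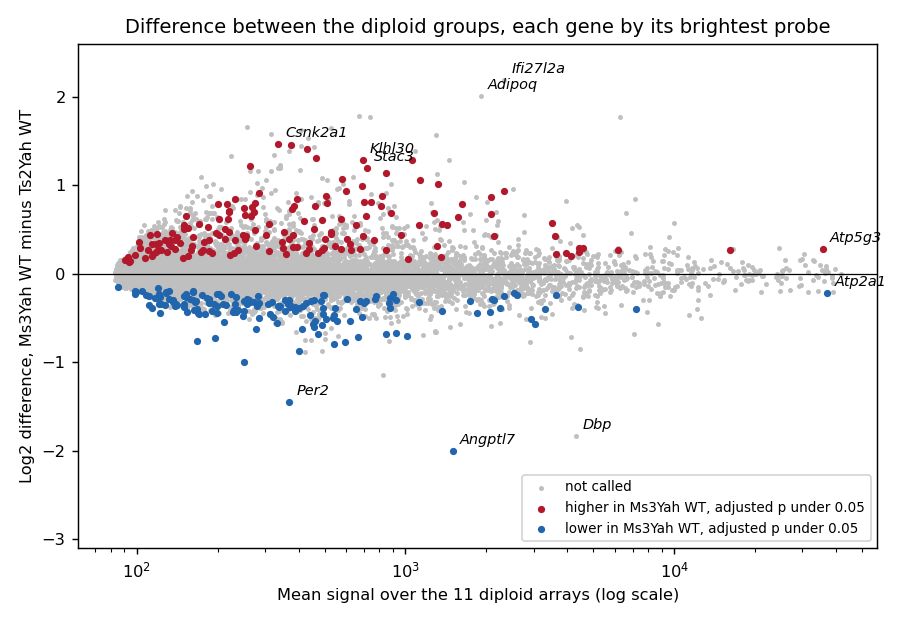
Log2 difference of Ms3Yah WT minus Ts2Yah WT muscles (vertical axis) against mean signal over the 11 mice (horizontal axis, log scale), 1 point per gene by its brightest probe. Red points are the 160 genes called higher and blue points the 161 called lower in Ms3Yah WT; *Adipoq*, *Dbp* and *Ifi27l2a* differ as widely as the called genes but were not called.

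The leading genes of both sides were picked from called probes without overlap between the groups. Their separation is thus part of the choice and adds no support. Of the 10 genes that led the higher side, *Stac3* encodes a scaffold that couples the voltage sensor of the fibre membrane to calcium release. Its signal was 792 at the lowest, 933 at the median and 1205 at the highest in Ms3Yah WT muscles, against 369, 398, 585, 359.6 and 403 in Ts2Yah WT muscles. Every Ms3Yah WT mouse lay above every Ts2Yah WT mouse, and *Stac3* rose by 1.2 ± 0.13 (SE, adjusted p = 0.00529). *Ppp3r1*, the regulatory subunit of the calcium-activated phosphatase calcineurin, was 1320.3 at the lowest, 1491 at the median and 1563 at the highest in Ms3Yah WT muscles and 475, 643, 1007, 728 and 784 in Ts2Yah WT muscles. It too separated the groups and rose by 1.06 ± 0.14 (SE, adjusted p = 0.00718). *Cdk16*, a cyclin-dependent kinase, averaged 889.6 ± 85.1 in Ms3Yah WT muscles and 453 ± 103 in Ts2Yah WT muscles, a rise of 1.0 ± 0.13 (SE, adjusted p = 0.00609). The transcription factor gene *Klf6* averaged 759.5 ± 113 in Ms3Yah WT muscles and 367 ± 95.1 in Ts2Yah WT muscles (log2 difference 1.07, SE 0.15, adjusted p = 0.0073), and *Klhl30*, of the Kelch family, 952 ± 261 in Ms3Yah WT muscles and 383 ± 71.2 in Ts2Yah WT muscles (log2 difference 1.28, SE 0.19, adjusted p = 0.011). The other probe of *Klf6* had a fold of 1.09 and that of *Ppp3r1* 1.02, neither called.

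The higher side held 5 further leading genes. *Csnk2a1*, the catalytic subunit of casein kinase 2, averaged 474 ± 159 in Ms3Yah WT muscles and 167 ± 39.7 in Ts2Yah WT muscles (log2 difference 1.47, SE 0.24, adjusted p = 0.0149), while its 2 other probes had folds of 0.946 and 1.05. *Nipbl*, which loads cohesin onto chromosomes, averaged 1121 ± 224 in Ms3Yah WT muscles and 523 ± 173 in Ts2Yah WT muscles (log2 difference 1.14, SE 0.21, adjusted p = 0.0275), with folds of 0.869 to 1.09 in 7 other probes. A dimmer probe of the titin gene *Ttn* averaged 7177 ± 2763 in Ms3Yah WT muscles and 2229.9 ± 920.2 in Ts2Yah WT muscles (log2 difference 1.69, SE 0.33, adjusted p = 0.0299). Of 11 other *Ttn* probes, 7 had the same sign and 1 was called, with folds from 0.670 to 2.49. The brightest *Ttn* probe ran the other way, with a log2 difference of −0.18 that was not called. *Eif4ebp2*, which holds back the cap-binding translation factor, averaged 1696 ± 279 in Ms3Yah WT muscles and 868 ± 288 in Ts2Yah WT muscles (log2 difference 1.02, SE 0.20, adjusted p = 0.0309), and *Pdap1* 2939.8 ± 165 in Ms3Yah WT muscles and 1585 ± 459.6 in Ts2Yah WT muscles (log2 difference 0.94, SE 0.15, adjusted p = 0.0154). Without mouse 34925 the adjusted p was 0.0662 for *Nipbl*, 0.0743 for *Ttn* and 0.0817 for *Eif4ebp2*. *Stac3*, *Ppp3r1*, *Cdk16*, *Klf6*, *Klhl30*, *Csnk2a1* and *Pdap1* stayed called without any 1 mouse.

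The lower side was led by *Angptl7*, a secreted angiopoietin-like protein made by tendon and other connective tissue. Its signal was 411 at the lowest, 601 at the median and 869 at the highest in Ms3Yah WT muscles, against 3609.7, 3421, 2074, 1794 and 1812 in Ts2Yah WT muscles. The brightest Ms3Yah WT mouse lay well below the dimmest Ts2Yah WT mouse. *Angptl7* fell with a difference of −2.0 ± 0.25 (SE, adjusted p = 0.00552), and a second probe was called at a fold of 0.373. It stayed called without any 1 mouse, with the authors' background-subtracted series matrix values and with the *Adipoq* covariate. *Ppp1cb*, a catalytic subunit of protein phosphatase 1, was read by a probe that is not its brightest and averaged 392 ± 30.8 in Ms3Yah WT muscles and 743 ± 135 in Ts2Yah WT muscles (log2 difference −0.9, SE 0.11, adjusted p = 0.00531), and its brightest probe was called at a fold of 0.585, while another had 0.987.

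*Lims2*, *Zbtb18* and *Capn2* were also read by probes dimmer than their brightest. *Lims2*, an adaptor at integrin adhesions, averaged 394 ± 77.9 in Ms3Yah WT muscles and 689.6 ± 109.98 in Ts2Yah WT muscles (log2 difference −0.82, SE 0.14, adjusted p = 0.0161), and its other 2 probes had folds of 0.849 and 0.881, neither called. *Zbtb18*, a transcriptional repressor, averaged 165 ± 24.3 in Ms3Yah WT muscles and 286 ± 51.3 in Ts2Yah WT muscles (log2 difference −0.79, SE 0.13, adjusted p = 0.0153), and of its 4 other probes, with folds of 0.683 to 1.01, none was called and 1 had the opposite sign. *Gadd45b*, a stress-induced gene, averaged 173 ± 48.2 in Ms3Yah WT muscles and 346 ± 103 in Ts2Yah WT muscles (log2 difference −1.0, SE 0.21, adjusted p = 0.0452), and *Jak2*, the kinase of many cytokine receptors, 410.5 ± 87.7 in Ms3Yah WT muscles and 703 ± 91.8 in Ts2Yah WT muscles (log2 difference −0.79, SE 0.14, adjusted p = 0.023). *Lrrc2* averaged 296 ± 85.6 in Ms3Yah WT muscles and 524 ± 61.6 in Ts2Yah WT muscles (log2 difference −0.87, SE 0.18, adjusted p = 0.0353), and the calcium-activated protease gene *Capn2* 275 ± 73.5 in Ms3Yah WT muscles and 449.6 ± 59.1 in Ts2Yah WT muscles (log2 difference −0.74, SE 0.16, adjusted p = 0.049). Of the 4 other *Capn2* probes, with folds of 0.662 to 1.02, 2 were called lower and 2 had the opposite sign. The other probes of *Jak2* had folds of 0.702 and 1.01, that of *Gadd45b* 0.904 and that of *Lrrc2* 0.971, none called. *Lims2* and *Zbtb18* stayed called without any 1 mouse. Without mouse 34925 the adjusted p was 0.0622 for *Gadd45b*, 0.066 for *Jak2*, 0.0693 for *Lrrc2* and 0.117 for *Capn2*, and the 2 remaining leaders, *Per2* and *Ciart*, are clock genes.

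The circadian clock of each cell is a feedback loop. CLOCK and BMAL1, the product of *Arntl*, bind E-boxes, whose core letters are CACGTG, and switch on their own repressors, among them PER and CIART. A second set of factors, including DBP, acts through D-boxes. Of 17 clock genes expressed, 4 fell in Ms3Yah WT muscles and none rose. The 4 were 23.5%, where 0.852% of all genes and 331 of 13594 probes detected on all 11 arrays fell. This list too was chosen with earlier results of these data known, so the share is a description and adds no support. The median difference of the 17 was −0.34, where that of all genes was 0 to 2 decimals (−0.56 for the clock genes with the series matrix values), and 8 genes had no Ms3Yah WT mouse above any Ts2Yah WT mouse (1.43% of all genes) while 1 had none below (1.5%).

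*Per2*, a core repressor of the loop, was 109 at the lowest, 226 at the median and 340.4 at the highest in Ms3Yah WT muscles, against 604, 638, 515, 525 and 486 in Ts2Yah WT muscles. The groups were well apart, and *Per2* fell with a difference of −1.45 ± 0.26 (SE, adjusted p = 0.0205). A second of its 3 probes was called at a fold of 0.456, and the third had 1.02. *Per3*, its paralogue, was 86.8 at the lowest, 107 at the median and 119.8 at the highest in Ms3Yah WT muscles, against 151, 143, 131, 133 and 152 in Ts2Yah WT muscles, and fell with −0.44 ± 0.07 (SE, adjusted p = 0.018). *Nr1d2*, the nuclear receptor REV-ERB beta, was 253 at the lowest, 388 at the median and 451 at the highest in Ms3Yah WT muscles, against 546, 607, 600.2, 568 and 644 in Ts2Yah WT muscles, and fell with −0.68 ± 0.12 (SE, adjusted p = 0.021). *Ciart*, a repressor that binds BMAL1, was 95.9 at the lowest, 118 at the median and 171 at the highest in Ms3Yah WT muscles, against 192, 204, 243, 176 and 265 in Ts2Yah WT muscles. It fell with −0.76 ± 0.15 (SE, adjusted p = 0.0323), and both of its other probes were called, at folds of 0.615 and 0.707. None of these 4 genes overlapped between the groups. The lowest Ms3Yah WT signals of *Per3* and *Ciart* lay near the expression threshold of 89.8, so their differences cannot be read as ratios of transcripts.

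These calls were close to the threshold. Without mouse 34925 the adjusted p was 0.0502 for *Per2*, 0.0551 for *Per3*, 0.0622 for *Nr1d2* and 0.0838 for *Ciart*. Leaving out mouse 34731 also ended the call of *Per2* (adjusted p = 0.0502), and that of *Ciart* was lost in 6 of 11 such fits.

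The promoters of *Ciart* and *Per3* are shown because they carry the letters of these elements more than once. Both are 300 bases from RefSeq on GRCm38.p6, 5′ to 3′, from 250 bases before the gene's start to 50 after it, with the motif in capitals. *Ciart* lies on the minus strand at chr3:95882179-95882478 and holds 3 matches to CACGTG, which reads the same on both strands, while *Per3* lies on the minus strand at chr4:151044616-151044915 and holds 2 matches to the D-box letters TTATGTAA.
Ciart promoter: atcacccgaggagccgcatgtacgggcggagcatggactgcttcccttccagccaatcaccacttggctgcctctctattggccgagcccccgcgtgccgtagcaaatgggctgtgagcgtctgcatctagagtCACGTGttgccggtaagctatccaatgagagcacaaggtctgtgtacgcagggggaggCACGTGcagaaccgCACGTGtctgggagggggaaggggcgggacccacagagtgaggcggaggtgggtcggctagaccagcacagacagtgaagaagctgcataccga
Per3 promoter: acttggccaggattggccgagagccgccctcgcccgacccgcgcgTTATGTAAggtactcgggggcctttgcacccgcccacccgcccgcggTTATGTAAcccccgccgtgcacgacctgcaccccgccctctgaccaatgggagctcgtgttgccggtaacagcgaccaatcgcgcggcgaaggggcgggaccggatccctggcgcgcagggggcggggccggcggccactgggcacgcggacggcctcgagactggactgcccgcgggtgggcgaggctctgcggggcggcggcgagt
CACGTG was present in 7.15% of 32851 promoters of this length and TTATGTAA, searched on both strands, in 0.938%. Of 15 clock genes with a promoter in this table, 5 held CACGTG (*Bhlhe41*, *Ciart*, *Cry1*, *Per1* and *Tef*) and 1 held TTATGTAA. Of these 5, only *Ciart* changed between the groups. A match is a run of letters and was not tested as a binding site.

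Further clock genes, named after their values were seen, had wide differences that were not called. *Dbp*, a D-box factor driven directly by the clock, was 368 at the lowest, 2417 at the median and 3645 at the highest in Ms3Yah WT muscles, against 6206, 7693, 7492, 5572 and 6696 in Ts2Yah WT muscles. The groups did not overlap, but 1 Ms3Yah WT mouse lay far below the rest and the difference of −1.83 ± 0.47 (SE, adjusted p = 0.0806) missed the threshold. *Arntl* ran the other way, at 154 at the lowest, 219.9 at the median and 371 at the highest in Ms3Yah WT muscles and 129.98, 112, 118, 135 and 125 in Ts2Yah WT muscles (log2 difference 0.88, SE 0.21, adjusted p = 0.0609), also without overlap. *Usp2* (−0.72, adjusted p = 0.0681), *Cry2* (−0.51, adjusted p = 0.0748) and *Tef* (−0.51, adjusted p = 0.114) were lower and *Clock* higher (0.38, adjusted p = 0.0934), none of them called. *Nr1d1*, the partner of *Nr1d2*, had 0.39 and *Per1* −0.34. The summed signal of the list was 7448 to 13875 in Ms3Yah WT mice and 18257 to 20477 in Ts2Yah WT mice. The hour of sampling was not given in the sources used here, and its part in these values was not tested.

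**Figure D3:**
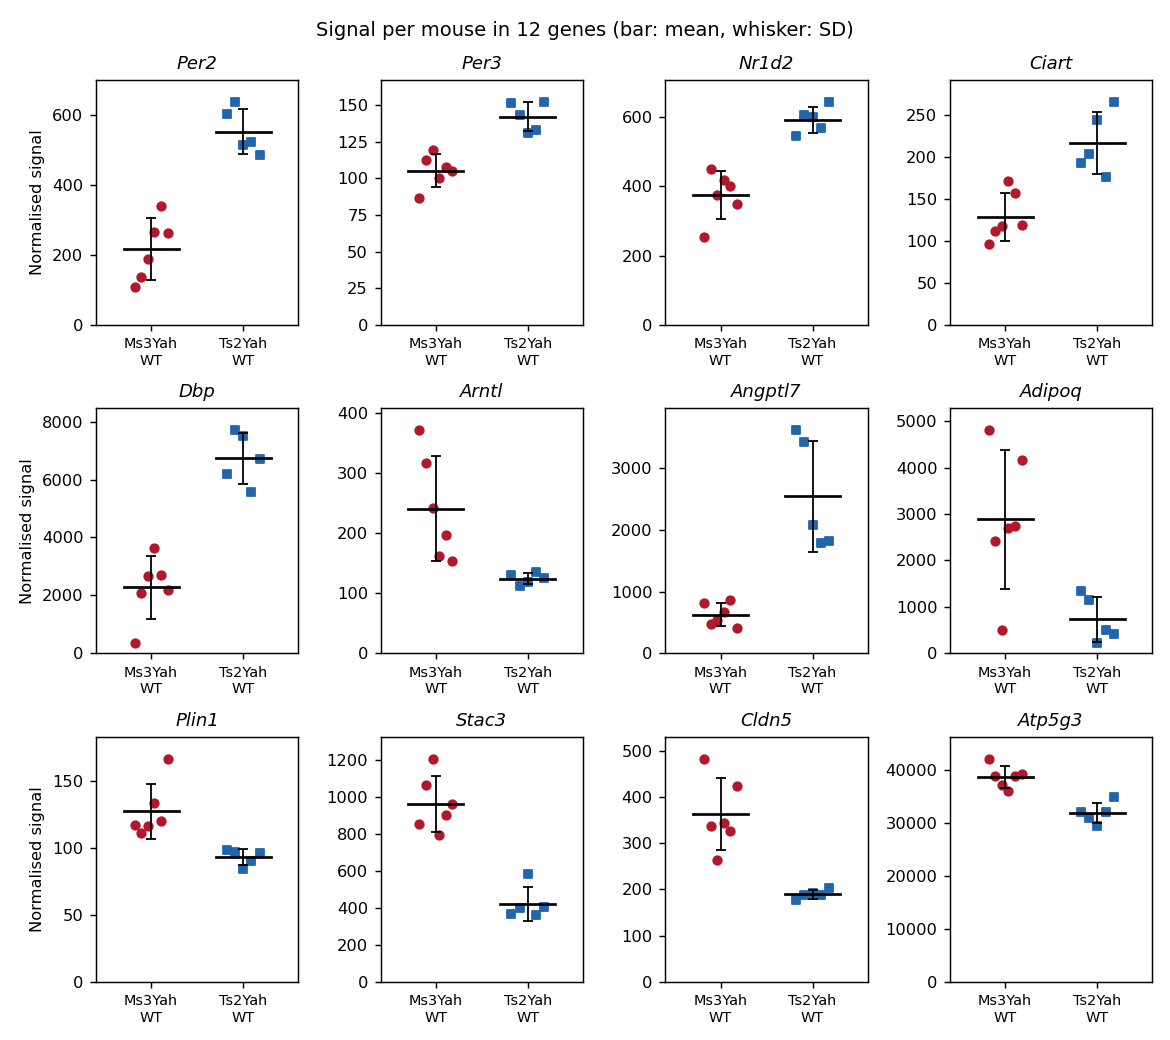
Normalised signal (vertical axes, starting at 0) of 12 genes in each mouse, with Ms3Yah WT (6 red circles) left of Ts2Yah WT (5 blue squares), bars at the mean and whiskers of 1 SD. *Per2*, *Per3*, *Nr1d2*, *Ciart*, *Dbp* and *Angptl7* lie lower and *Arntl*, *Plin1*, *Stac3*, *Cldn5* and *Atp5g3* higher in all Ms3Yah WT mice than in any Ts2Yah WT mouse, whereas *Adipoq* overlaps.

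Fat-cell genes had higher signals on average in Ms3Yah WT muscles, but only 1 of 10 was called. This was 10%, against 1.7% of all genes and 4.1% of probes detected on all 11 arrays. All 10 expressed adipocyte genes had a positive difference, with a median of 0.96 (1.93 with the series matrix values), and *Plin1*, which coats the lipid droplet, rose. *Plin1* was 111 at the lowest, 118 at the median and 166 at the highest in Ms3Yah WT muscles, against 98.7, 97.2, 84.5, 89.99 and 96 in Ts2Yah WT muscles, a rise of 0.44 ± 0.09 (SE, adjusted p = 0.0425) without overlap. Its Ts2Yah WT signals lay near the expression threshold of 89.8, so the size of this rise cannot be read as a ratio of transcripts. The call of *Plin1* was lost in 8 of 11 fits that left out 1 mouse, with an adjusted p of 0.0904 without mouse 34925.

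*Adipoq* itself was 497 at the lowest, 2720.05 at the median and 4803 at the highest in Ms3Yah WT muscles, against 1346, 1159, 218, 505 and 413 in Ts2Yah WT muscles. A single Ms3Yah WT mouse, 37146, carried the low value and lay inside the Ts2Yah WT range, and the difference of 2.01 ± 0.60 (SE, adjusted p = 0.124) was not called. *Acly*, which makes acetyl-CoA for fat synthesis, averaged 2022 ± 903 in Ms3Yah WT muscles and 768 ± 165 in Ts2Yah WT muscles (log2 difference 1.28, SE 0.32, adjusted p = 0.0737), and leptin *Lep* 626 ± 416 in Ms3Yah WT muscles and 198 ± 68.6 in Ts2Yah WT muscles (log2 difference 1.43, SE 0.47, adjusted p = 0.161). The desaturase *Scd1*, the lipid-droplet gene *Cidec* and the lipid carrier *Fabp4* had differences of 1.77, 1.77 and 0.64. *Retn* (resistin), a defining fat-cell gene, was detected on 1 of 11 arrays. The summed signal of the 10 genes was 4210 to 25510 in Ms3Yah WT and 2088 to 8369 in Ts2Yah WT mice. These ranges overlapped, and the part of fat cells in the other differences was not tested beyond the covariate fit above.

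Tendon genes had lower signals on average. Of 9 expressed, 1 fell (*Angptl7*, 11.1%, against 0.852% of all genes and 331 of 13594 probes detected on all 11 arrays). None rose, and 8 of 9 differences were negative. The list was chosen with earlier results of these data known, so the share called is a description and adds no support. The median was −0.25, and −0.62 with neqc, limma's background correction before the quantile step, and −0.89 with the series matrix values. The cartilage matrix protein *Chad* averaged 545 ± 238 in Ms3Yah WT muscles and 1167 ± 556 in Ts2Yah WT muscles (log2 difference −1.14, SE 0.42, adjusted p = 0.216), and fibromodulin *Fmod*, which organises collagen fibrils, 693 ± 286 in Ms3Yah WT muscles and 1084 ± 197 in Ts2Yah WT muscles (log2 difference −0.76, SE 0.30, adjusted p = 0.241). The tendon transcription factor *Scx* differed by −0.16 and tenomodulin *Tnmd* was detected on 1 of 11 arrays. The summed signal, *Angptl7* included, was 1551 to 3464 in Ms3Yah WT and 4245 to 8225 in Ts2Yah WT mice, without overlap. *Angptl7* did not overlap by itself, so this sum does not show that the other tendon genes separated the groups. The part of tendon tissue in the other differences was not tested.

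Endothelial genes moved in both directions. Of 10, *Cldn5*, the tight-junction claudin of capillaries, and *Egfl7*, secreted by endothelium, rose and the adhesion molecule *Pecam1* fell. These calls were 30% of the list, against 1.7% of all genes and 4.1% of probes detected on all 11 arrays. *Cldn5* averaged 363 ± 77.8 in Ms3Yah WT muscles and 189.7 ± 9.73 in Ts2Yah WT muscles (log2 difference 0.91, SE 0.12, adjusted p = 0.00718) and *Egfl7* 2487 ± 182 in Ms3Yah WT muscles and 1580.2 ± 324 in Ts2Yah WT muscles (log2 difference 0.67, SE 0.11, adjusted p = 0.0144). *Pecam1* averaged 269 ± 28 in Ms3Yah WT muscles and 368 ± 38.9 in Ts2Yah WT muscles (log2 difference −0.45, SE 0.08, adjusted p = 0.0213), a call lost without mouse 34925 (adjusted p = 0.0599) or 34731 (adjusted p = 0.0524). The list's median was 0.05.

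No gene of the immune lists was called. All 12 macrophage genes and all 6 lymphocyte genes had positive differences, with medians of 0.34 and 0.52, and 13 of 15 genes of interferon response and antigen presentation did, with a median of 0.25. With neqc these medians were 0.59, 1.15 and 0.51, and with the series matrix values 0.82, 2.39 and 0.64. The interferon-induced gene *Ifi27l2a* averaged 3649 ± 1747 in Ms3Yah WT muscles and 751 ± 338 in Ts2Yah WT muscles, the widest difference of that list (log2 difference 2.2, SE 0.49, adjusted p = 0.0508). *Cd74*, the invariant chain of MHC class II, averaged 2201 ± 1313 in Ms3Yah WT muscles and 997 ± 449.7 in Ts2Yah WT muscles (log2 difference 1.04, SE 0.46, adjusted p = 0.297), and *Cd79b*, of B cells, was detected on 4 of 6 Ms3Yah WT arrays and on none of 5 Ts2Yah WT arrays. Matrix and fibroblast genes had a median of 0.01 and no call.

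**Figure D4:**
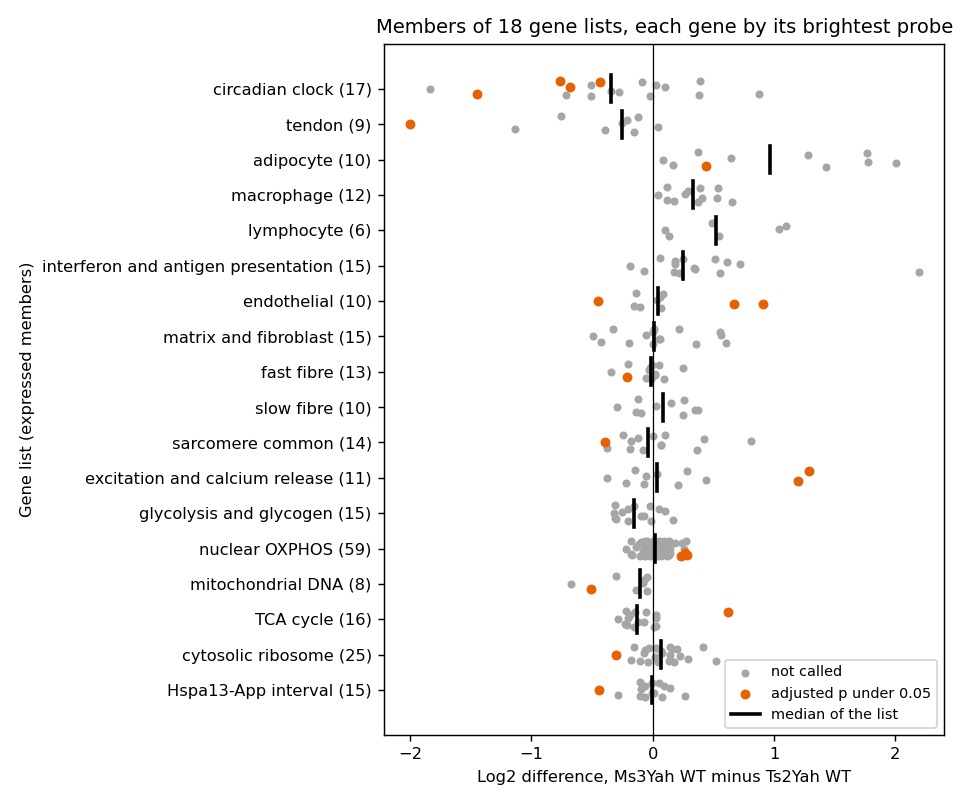
Log2 difference of Ms3Yah WT minus Ts2Yah WT muscles (horizontal axis) for the expressed members of 18 gene lists, 1 point per gene, with called genes in orange and the median of each list as a black bar. The medians of the clock and tendon lists lie left of 0 and those of the adipocyte, macrophage and lymphocyte lists right of it, while the medians of the muscle and mitochondrial lists lie no further from 0 than the −0.15 of glycolysis and glycogen.

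Of 13 fast-fibre genes 1 fell (*Atp2a1*, 7.69%), of 14 common sarcomere genes 1 fell (*Myot*, 7.14%), and of 10 slow-fibre genes none changed, where 1.7% of all genes and 4.1% of probes detected on all 11 arrays were called. The differences of these lists had medians of −0.02, −0.04 and 0.09. Under median scaling these medians were −0.26, −0.21 and −0.005, so that the sign for slow-fibre genes depended on the scaling, and with the mean over probes the sarcomere median was 0.06. *Myot*, the Z-disc protein myotilin, averaged 2908 ± 309 in Ms3Yah WT muscles and 3811 ± 389 in Ts2Yah WT muscles (log2 difference −0.39, SE 0.08, adjusted p = 0.04), a call lost in 9 of 11 fits that left out 1 mouse. Of 11 genes of excitation and calcium release, *Stac3* and *Cacna2d1*, an auxiliary subunit of the voltage-gated calcium channel, rose (18.2%, against 0.846% of all genes). *Cacna2d1* was 828.5 at the lowest, 1431 at the median and 1983 at the highest in Ms3Yah WT muscles, against 689, 884, 378, 424 and 605 in Ts2Yah WT muscles, with overlapping ranges and a rise of 1.29 ± 0.25 (SE, adjusted p = 0.0284) that was lost in 4 of 11 such fits (adjusted p = 0.0666 without mouse 34925). The list's median was 0.04, and −0.05 under median scaling.

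The median of 59 nuclear genes of oxidative phosphorylation was 0.02. None fell and 3 rose (5.08%, against 0.846% of all genes and 227 of 13594 probes detected on all 11 arrays). Beside *Atp5g3* these were the complex I subunits *Ndufb3*, at 3889.9 ± 144 in Ms3Yah WT muscles and 3315 ± 145 in Ts2Yah WT muscles (log2 difference 0.23, SE 0.04, adjusted p = 0.0151), and *Ndufs6*, at 17509 ± 1344 in Ms3Yah WT muscles and 14532 ± 701 in Ts2Yah WT muscles (log2 difference 0.27, SE 0.05, adjusted p = 0.0368). Under median scaling the median of the list was −0.06 and none of these 3 stayed called, and *Ndufs6* was lost in 9 of 11 fits that left out 1 mouse. All 8 genes of mitochondrial DNA had negative differences, with a median of −0.11, and 1 fell. It was *ND4L*, a complex I subunit, at 2463 ± 359.7 in Ms3Yah WT muscles and 3478 ± 315 in Ts2Yah WT muscles (log2 difference −0.51, SE 0.10, adjusted p = 0.028), with an adjusted p of 0.0774 without mouse 34925.

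Of 16 TCA cycle genes *Idh3b*, a subunit of isocitrate dehydrogenase, rose, at 692 ± 149.5 in Ms3Yah WT muscles and 441 ± 36 in Ts2Yah WT muscles (log2 difference 0.62, SE 0.14, adjusted p = 0.0494), although 11 of the 16 differences were negative and the call was lost in 10 of 11 fits that left out 1 mouse. None of 15 genes of glycolysis and glycogen changed, of which 12 were negative with a median of −0.15 (−0.31 under median scaling), and none of 19 genes of fatty acid uptake and oxidation did. Among 25 cytosolic ribosomal genes the dim probe of *Rps15a* fell, at 149.9 ± 8.51 in Ms3Yah WT muscles and 185 ± 10.7 in Ts2Yah WT muscles (log2 difference −0.3, SE 0.05, adjusted p = 0.0149), and among 14 proteasome genes *Psmb2* rose, at 4407 ± 239.95 in Ms3Yah WT muscles and 3826 ± 149 in Ts2Yah WT muscles (log2 difference 0.2, SE 0.04, adjusted p = 0.0408), a call lost in 9 of 11 fits. The heat shock gene *Hsp90aa1* rose by 0.85 ± 0.15 (SE, adjusted p = 0.0205), with an adjusted p of 0.0586 without mouse 34925. The single call was 12.5% of the mitochondrial DNA list, 6.25% of the TCA cycle, 4% of the ribosomal, 7.14% of the proteasome and 6.67% of the heat shock list. Of all genes 1.7% were called, and of probes detected on all 11 arrays 4.1%. No gene of muscle growth and atrophy, of the PGC-1 and nuclear receptor list or of the glucocorticoid response was called.

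The *Hspa13-App* interval has 2 copies in both groups. Of its 15 genes, 7 were detected on all 11 arrays. Among the 15, read by the brightest probe, 1 fell (6.67%, against 0.852% of all genes and 331 of 13594 probes detected on all 11 arrays). Counting every probe of these genes, 3 were called. *App*, the amyloid precursor gene, averaged 2381 ± 157 in Ms3Yah WT muscles and 2369.99 ± 181 in Ts2Yah WT muscles, and *Atp5j*, a coupling subunit of ATP synthase, 19888 ± 1319 in Ms3Yah WT muscles and 19931 ± 1202 in Ts2Yah WT muscles, with differences of 0.01 and 0 to 2 decimals. *Jam2*, a junctional adhesion molecule of endothelium, was 139 at the lowest, 142 at the median and 158 at the highest in Ms3Yah WT muscles, against 179, 192, 188, 197 and 236 in Ts2Yah WT muscles. The groups did not overlap, and *Jam2* fell with a difference of −0.44 ± 0.06 (SE, adjusted p = 0.0089), which stayed called without any 1 mouse. Called genes were spread over the genome, from 1.08% of genes on chromosome 6 to 2.63% on chromosome 5 among autosomes, with 8 of 600 on chromosome 16, which carries the interval.

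None of the 5 genes used as references for PCR was called. Cyclophilin *Ppia* differed by 0.18, beta-actin *Actb* by 0.16, *Hprt* by 0.14 and the glycolysis gene *Pgk1* by −0.15. *Gnas*, the stimulatory G protein subunit, was 2309 at the lowest, 2560.4 at the median and 3282 at the highest in Ms3Yah WT muscles and 3318, 3589, 4030.3, 3391 and 4616 in Ts2Yah WT muscles, without overlap (log2 difference −0.48, SE 0.11, adjusted p = 0.0598).

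The difference between the lines was then read in the 12 arrays of their aneuploid littermates. The 6 Ms3Yah Del mice have 1 copy of the interval. The 6 Ts2Yah Dup mice have 3 copies, except of *App*, which the paper describes as not duplicated. None of these arrays entered the diploid comparison, but the mice come from the same lines, and their copy number of the interval differs. In this comparison 3.09% of 44262 probes outside the interval were called. Of the 624 probes called between the diploid groups outside the interval, 587 (94.1%) had the same direction in Ms3Yah Del minus Ts2Yah Dup, against 65.3% of all probes outside the interval and 72% of uncalled probes detected on all 11 diploid arrays. Of the 624, 204 (32.7%) were called there in the same direction and 0 in the opposite one. The median absolute difference of the 624 was 0.36 in the diploid and 0.23 in the aneuploid arrays.

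Genes described above are given with their differences in the aneuploid mice. *Stac3* differed by 0.65 and *Csnk2a1* by 1.16 there, both called. *Per2* differed by −0.85, *Dbp* by −1.16, *Per3* by −0.5 and *Arntl* by 0.4, of which *Per3* alone was called, and the clock list had a median of −0.38. *Angptl7* differed by −0.57 and was not called, and the contrasts did not differ past the threshold for it (adjusted p = 0.444). The adipocyte list had a median of 0.57 and the tendon list one of −0.29. A difference between the contrasts was called for 4 of the 44262 probes (0.00904%), 1 of them among the 624.

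**Figure D5:**
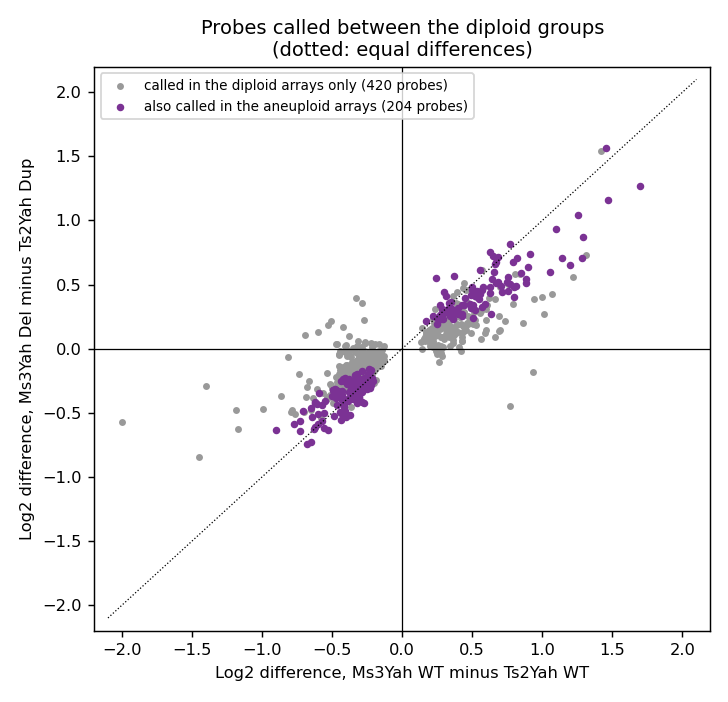
Log2 difference of Ms3Yah Del minus Ts2Yah Dup mice (vertical axis) against that of Ms3Yah WT minus Ts2Yah WT mice (horizontal axis) for the 624 probes called between the diploid groups outside the interval, with the 204 also called in the aneuploid arrays in purple. Points at the upper right and lower left, 587 of 624, have the same direction in both.

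The spread between mice of 1 group was small for most genes. Over 8106 genes detected on all 11 arrays, the SD of log2 signal within groups had a median of 0.14 and a 95th percentile of 0.36, and 18 genes exceeded 1. The most variable was *Amd2*, an S-adenosylmethionine decarboxylase of polyamine synthesis, with an SD of 1.62. *Nmrk2*, a nicotinamide riboside kinase of muscle (1.58), the major urinary protein gene *Mup2* (1.5), *Cish*, an inhibitor of cytokine signalling (1.33), and *Smox*, the spermine oxidase (1.32), followed. *Cyp2e1* (1.26), *Hmga2-ps1* (1.23), *Retnla* (1.19), *Cidec* (1.16) and *Adipoq* (1.14) completed the 10. None of them was called between the groups.

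*Xist*, transcribed from the inactive X chromosome of females, was detected in 3 of 6 Ms3Yah WT and 2 of 5 Ts2Yah WT mice, at 436 to 954, and had 85.2 to 94.5 in the other 6 mice. The Y-linked *Eif2s3y* ran opposite, at 86.9 to 92.1 in the 5 mice with *Xist* and 496 to 832 in the 6 without it. By these signals each group held female and male mice, a split that the labels do not give. Several of the most variable genes took the same side in both groups. *Amd2* was 177 to 223 in the 5 mice with *Xist* and 701 to 1977 in the 6 without. *Smox* was 1354 to 4043 and 8354 to 13105 in the same order, and *Nmrk2* 252 to 1114 and 3337 to 7097. The reverse held for *Mup2*, at 743 to 3280 in mice with *Xist* and 172 to 585 in those without, and for the resistin-like gene *Retnla*, at 934 to 3031 and 178 to 452. For *Cish*, *Cyp2e1*, *Cidec*, *Adipoq* and *Hmga2-ps1* the ranges overlapped. These ranges were set side by side after the values had been seen and carry no test. With the *Xist* signal as a covariate 753 probes were called between Ms3Yah WT and Ts2Yah WT muscles.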

How the data were processed

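RNA of frozen gastrocnemius had been extracted, DNase-treated, labelled as biotinylated cDNA and hybridised by the authors. The deposited non-normalised table holds raw probe intensity and a detection p-value for each array. The deposited series matrix holds the authors' background-subtracted, quantile-normalised intensity on a linear scale; its background method is not given in the sources used here, and it served as an alternative (values below 1 set to 1, then log2). No column of samples outside the series was found (0).

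Raw intensities of all 23 arrays were quantile normalised and log2 transformed with limma 3.58.1 in R 4.3.3. Probes whose signal passed the 35th percentile of all signals, 89.8 (6.49 on the log2 scale), on at least 1 of the 11 diploid arrays were tested, 44307 of 45281 probes in all. Detection means a detection p-value below 0.05. Platform annotation with updated symbols gave 1 gene to 34885 probes (34807 updated, 78 with the older symbol), several to 18 and none to 10378, and 440 of 481 listed genes had a named probe. The model held the 11 diploid arrays with 1 mean per group and no covariate. The number of arrays limits the precision. P-values measure only the spread between these mice, 1 array each.

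The members and gene lists were chosen with earlier results of these data known. Shares of called members in any list are therefore descriptions and add no support. Genes named are the 20 brightest, the 10 leading called genes without overlap in each direction, from each list no more than the 4 genes lowest in p, the 10 most variable within groups and the 5 with the largest change of rank; other members are named as examples chosen after their values were seen. The procedure was tested on simulated data with known changes. The methods' t-test, other scalings and filters, an array covariate and leaving out each mouse were the alternatives. Promoters come from RefSeq on GRCm38.p6. Probes of unnamed genes entered the counts only.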

Additional observations from a re-analysis of the deposited data

Results flagged for a closer look

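In 11 of 180 checked groups of 5 or 6 mice, 1 mouse lay apart from the rest by Dixon's ratio, a number to be read against about 1 such group in 20 by chance. Values below are normalised signals, with the range of the other mice of that group.

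In Ms3Yah WT, mouse 37146 was low in *Aldoa* (28569, others 38271 to 42116), *Adipoq* (497, others 2420 to 4803) and *Scd1* (2135, others 7567 to 15341). Mouse 37094 was low in *Actn3* (33724, others 37537 to 39574) and *Dbp* (368, others 2076 to 3645), and mouse 37075 in the cartilage matrix gene *Comp* (169, others 277 to 359). In Ts2Yah WT, mouse 34723 was low in *Atp5b* (36878, others 39216 to 39922) and *Acly* (488, others 786 to 927) and high in *Stac3* (585, others 359.6 to 403). Mouse 34925 was high in *Capn2* (553, others 412 to 435), and mouse 34923 was low in *Car3* (7846, others 14842 to 18826).

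The contrast between the lines differed between diploid and aneuploid mice for 1 probe called in the diploid comparison, in the adenosine kinase gene *Adk*. Its log2 difference was −0.33 in Ms3Yah WT minus Ts2Yah WT and 0.40 in Ms3Yah Del minus Ts2Yah Dup, a difference of −0.73 between the contrasts with an adjusted p below the threshold.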

How the results depend on the processing

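All 627 called probes kept their direction in every alternative that tested them, but the number of calls moved. The alternatives drew on the same diploid arrays from which the probes were called, and filters or another test leave a difference unchanged. The kept direction therefore adds no support. It was 282 with median scaling (96 higher and 186 lower in Ms3Yah WT), 104 with the series matrix values (53 and 51), 1236 with all 4 groups in the fit (559 and 677) and 98 with the methods' t-test after Benjamini-Hochberg adjustment (39 and 59), which gave 6463 probes at an unadjusted p under 0.05. With the filter on detection 409 probes were higher and 515 lower, and with the *Adipoq* covariate, chosen after seeing the data, 17 were called (13 and 4). The 6910 probes at an unadjusted p under 0.05 became 4108 with the detection filter and 4185 with the *Adipoq* covariate. Higher probes were 42.6% of calls, 51% with the series matrix values and 76.5% with the *Adipoq* covariate. Leaving out 1 mouse gave 228 to 748 calls, 103 to 351 higher and 125 to 397 lower. The cause was not tested. Quantile normalisation over the 11 diploid arrays, neqc and no filter moved no count by over 1.5 times. Of the 38 called probes named above, 28 stayed called with neqc, 19 with median scaling, 8 with the series matrix values, 5 with the methods' t-test and 4 with the *Adipoq* covariate. The groups shared 91 to 95 of their brightest 100 genes in all alternatives run, and 93.2% to 97.5% of called probes had the same direction in aneuploid mice under the other scalings.

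No paired analysis was possible because the replicate numbers are mouse identifiers that the groups do not share. BeadChip as a block was not run, since the headers used here do not place the arrays on chips. Of the probes tested, 17032 were detected on no diploid array, where signals lie near background and only 0.0294% were called. Group and breeding line coincide, array batch cannot be told apart from them here, and sex and age were not in the labels.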
